A study of Mus musculus with 2 samples.

Results

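Semaphorins, plexins and neuropilins form a family of guidance ligands and their receptors, and 34 of the 31053 genes in the mouse gene list carry their names. Members were taken by symbol alone, as every gene called Sema, Plxna to Plxnd, *Nrp1* or *Nrp2*, and none was added or left out for its measured level. The 34 are 20 semaphorins, 9 plexins, 2 neuropilins and 3 antisense RNAs that overlap *Plxna4* on the opposite strand (*Plxna4os1*, *Plxna4os2* and *Plxna4os3*). They were read in cultured mouse brain pericytes (PCs), the mural cells that wrap capillaries, at passage 5 (PC5) and at passage 20 (PC20), with 1 single cell RNA-seq library for each passage. Both cultures were primary PCs from papain-digested brains of female wild type C57BL/6N mice aged 6 to 8 weeks, with the brains of 6 animals pooled, grown first in endothelial cell growth medium and then in Pericyte Medium. Each passage came from an isolation of its own, so passage and isolation cannot be told apart, and neither culture held added endothelial cells. The comparison asks how the genes used by the cells differ between these cultures, and cannot assign a difference to the length of culture.

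Semaphorins are secreted or membrane-bound proteins that share a Sema domain and steer the movement and shape of neurons, endothelial cells and other migrating cells. Plexins are their signalling receptors, whose intracellular GTPase-activating domain acts on small GTPases and so on the cytoskeleton and on adhesion. Most secreted class 3 semaphorins do not bind a plexin alone and need a neuropilin as coreceptor, and neuropilins also bind members of the VEGF family, which links the pathway to vessel growth.

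After leaving out cells with at most 1000 genes or with 20% or more mitochondrial unique molecular identifiers (UMIs, each standing for 1 captured RNA molecule), 9950 of 10629 PC5 cells and 4749 of 4884 PC20 cells remained. PC20 cells were the deeper, with a median of 33424 UMIs per cell against 21700, so shares of cells were compared after every cell was thinned to 10500 UMIs, which left 8847 PC5 and 4474 PC20 cells. UMIs of the cycling genes *Mki67* or *Top2a* were found in 45.0% of PC5 and 72.2% of PC20 cells before thinning. Of 6 PC markers, *Pdgfrb* (35.8% and 5.43% of thinned cells) and *Anpep* (2.11% and 2.57%) were above 1% of cells in both libraries, *Cspg4* and *Rgs5* in PC5 only, and *Abcc9* and *Kcnj8* in neither. All 4 fibroblast markers, among them *Pdgfra* (52.4% against 0.134%), were higher in PC5, with summed levels of 1302 and 101 counts per 1000000 UMIs (CPM). Of the endothelial list *Cdh5* alone was above 1% of cells (64.4% of PC5, 0.0447% of PC20), while *Pecam1*, *Cldn5* and *Tek* stayed at or below 0.316%. Some markers of other lists were also higher in PC5, namely *Tagln* of smooth muscle (58.2% against 0.156%), *Stmn2* of neurons (20.9% against 0.0224%), *Aldh1l1* of astrocytes (7.08% against 0.0224%) and *Cx3cr1* of microglia (2.27% against 0.291%). The astrocyte marker *Slc4a4* went the other way (63.7% of PC5, 83.3% of PC20), and the summed astrocyte list had a log2 ratio of PC5 over PC20 of −0.59. *Acta2* of smooth muscle was in 28.1% of PC5 and 18.5% of PC20 thinned cells. The part of these differences in the values given here was not tested. With 1 library for each passage no difference could be tested, and all intervals are exact 95% intervals that cover counting error only.

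A gene was called on in a library when at least 1% of thinned cells held a UMI of it. For scale, 9 genes specific to other organs were found in no more than 0.0452% of PC5 cells and 0.0447% of PC20 cells. By this measure 18 of the 34 members were on in PC5 and 17 in PC20, beside 37.6% and 36.1% of all measured genes. Both passages shared 13 members, and 5 were on in PC5 only (*Sema3d*, *Sema4g*, *Sema6b*, *Sema6d* and *Sema7a*) and 4 in PC20 only (*Nrp2*, *Sema3b*, *Plxnb1* and *Plxnc1*). These lists depend on the limit: at 0.5% of cells *Nrp2*, *Sema3b* and *Plxnb1* were on in PC5 too and *Sema6d* in PC20 too, while *Sema6a* was on in PC5 only and *Sema4d* and *Sema4f* in PC20 only. Of the 12290 genes on in either library, 8.85% were on in PC5 only and 5.05% in PC20 only. The summed level of the 34 members was nearly the same in both passages, 454 against 447 CPM (log2 ratio 0.02). The sum hid opposite shifts: semaphorins together were at 243 against 147 CPM, plexins at 194 against 132 CPM, and neuropilins at 17.0 against 168 CPM. These levels count captured 3′ ends, 1 UMI for each molecule, so they were compared between genes without scaling by length.

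**Figure D1:**
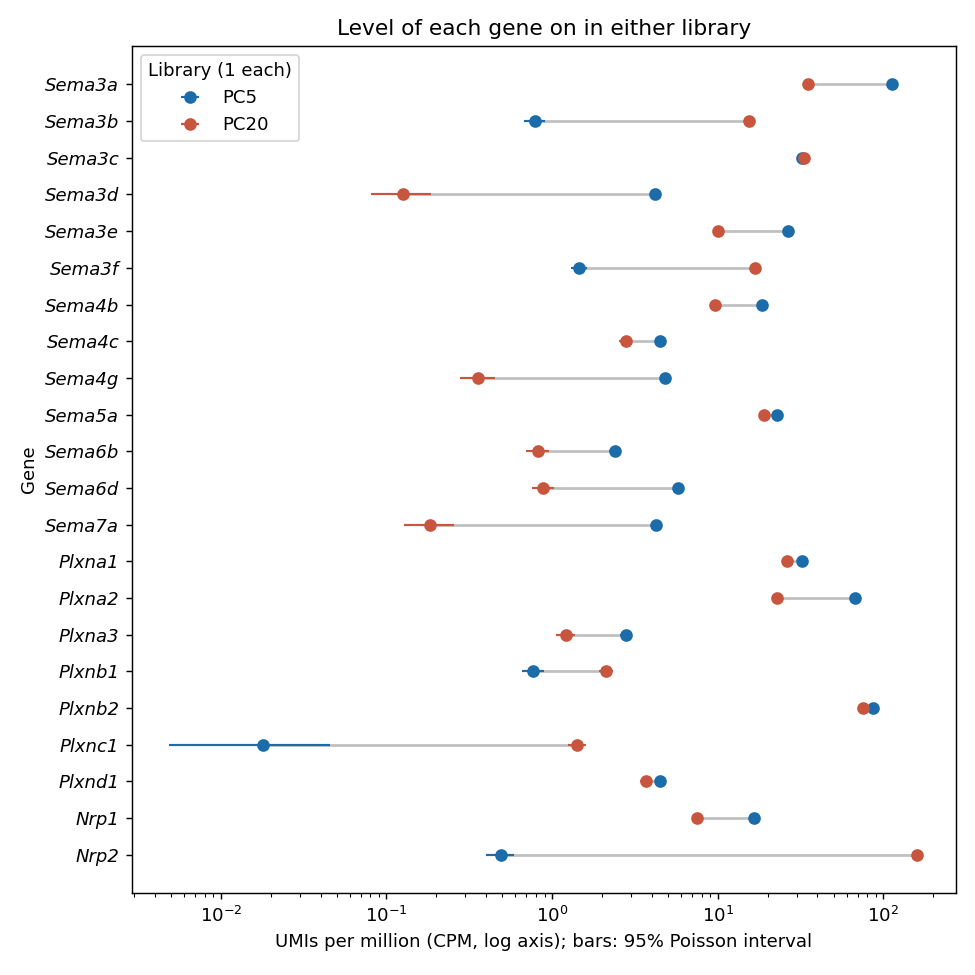
Level of each of the 22 members on in at least 1 passage, in CPM on a log axis, in PC5 and in PC20, with exact 95% Poisson intervals that cover counting error only. *Nrp2* runs from 0.489 CPM in PC5 to 160.1 CPM in PC20, the widest step among them, while *Plxnb2*, *Plxna1* and *Sema3c* lie at nearly the same level in both.

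The neuropilin pair changed places between the passages. *Nrp2* (GRCm38 chr1:62703285-62818695, plus strand), the coreceptor known for binding Sema3F and VEGF-C, had 109 UMIs in all PC5 cells and 30602 in PC20, that is 0.489 CPM (0.401 to 0.589) and 160.1 CPM (158 to 162). The log2 ratio of PC5 over PC20 was −8.36 (−8.64 to −8.08), a 328-fold higher level in PC20, and 0.382% of the genes on in either library had a ratio lower still. A UMI of *Nrp2* was present in 0.531% of thinned PC5 cells and in 74.5% of thinned PC20 cells (0.884% and 91.5% before thinning), so in PC20 the gene was found across most of the culture. By level it ranked 780 of all genes in PC20 and 12486 in PC5. *Nrp1* (chr8:128358604-128503363, plus strand), the coreceptor of Sema3A and of VEGF-A, went the other way, with 16.5 CPM (16.0 to 17.0) in PC5 against 7.45 CPM (7.07 to 7.85). That is 2.21-fold higher in PC5 (log2 1.15, 1.06 to 1.24), and 15.7% and 7.06% of thinned cells held a UMI of it. *Nrp1* held 97.1% of the neuropilin UMIs in PC5 and *Nrp2* 95.6% in PC20.

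The sequences before RefSeq starts of the members with the widest steps were read next, to show what DNA lies there. The 4 shown beside *Nrp1* belong to the members with the largest ratios in each direction whose window held no annotated exon, and were chosen after the values were seen. Each is 200 bases, from 250 to 51 bases before the RefSeq start on GRCm38.p6, written 5′ to 3′ on the strand of the gene, and capitals mark GGGCGG on either strand (CCGCCC on the one shown), a GC box of the kind bound by Sp factors.
Nrp2, chr1:62703067-62703266, plus strand: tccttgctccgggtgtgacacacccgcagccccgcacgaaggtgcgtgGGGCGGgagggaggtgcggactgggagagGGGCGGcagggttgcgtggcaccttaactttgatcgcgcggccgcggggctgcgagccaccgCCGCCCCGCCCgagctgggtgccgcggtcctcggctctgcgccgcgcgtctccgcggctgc
Plxnc1, chr10:94944896-94945095, minus strand: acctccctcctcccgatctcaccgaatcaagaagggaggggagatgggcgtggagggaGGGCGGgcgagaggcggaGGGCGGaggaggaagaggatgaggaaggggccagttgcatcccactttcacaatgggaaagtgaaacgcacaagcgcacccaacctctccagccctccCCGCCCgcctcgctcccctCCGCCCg
Sema3d, chr5:12382916-12383115, plus strand: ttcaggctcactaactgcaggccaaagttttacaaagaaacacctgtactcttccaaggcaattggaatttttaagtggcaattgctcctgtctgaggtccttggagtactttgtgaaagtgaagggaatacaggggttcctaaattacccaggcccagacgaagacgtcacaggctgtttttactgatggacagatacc
Sema7a, chr9:57939862-57940061, plus strand: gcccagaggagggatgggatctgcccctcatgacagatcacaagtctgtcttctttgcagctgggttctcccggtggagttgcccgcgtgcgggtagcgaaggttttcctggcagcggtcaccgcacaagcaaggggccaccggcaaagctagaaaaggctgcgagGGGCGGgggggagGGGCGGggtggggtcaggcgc
Nrp1, chr8:128358823-128359022, plus strand: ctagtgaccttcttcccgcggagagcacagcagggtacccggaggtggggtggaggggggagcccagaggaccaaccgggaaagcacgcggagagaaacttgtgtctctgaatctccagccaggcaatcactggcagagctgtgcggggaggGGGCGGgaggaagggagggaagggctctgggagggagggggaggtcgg
The *Nrp2* and *Plxnc1* windows, of genes higher in PC20, each held 4 such matches, with overlapping ones counted, and 75.5% and 66.0% G or C. The *Sema7a* window held 2 and the *Nrp1* window 1, at 65.5% and 66.0% G or C, and the *Sema3d* window had 0 matches and 45.0% G or C. Among windows not shown, *Plxnb1*, higher in PC20, held 3 and *Sema5a*, within 2-fold, held 4. Of genes higher in PC5, *Sema4g* held 3, *Plxna2* 2, and *Sema3a* and *Sema3e* 0. Unlike the windows shown, those of *Plxnb1*, *Sema5a*, *Sema4g* and *Plxna2* overlap an annotated exon. Of all 32851 RefSeq windows of the same length 24.6% held GGGCGG. Of the 37 windows found for 26 members, taken with or without an annotated exon, 19 did. The letters TGANTCA (AP-1) were in 1 of the 37 member windows and in 5.57% of all windows, ACGTG in 4 and in 12.9%, and TATAAA in 0 and in 9.14%, each searched on both strands. The windows stop 51 bases before the start, so TATAAA nearer to the start was not searched for. Member windows had a median of 62.5% G or C and all windows 51.5%, so a count of a G-rich motif has to be read beside base composition. A match is a description of the letters and not a binding site. The *Nrp1* window lies inside the gene span given above, so it is not upstream of the whole gene. The *Sema3d* RefSeq start (chr5:12383166) lies before the annotated gene start (chr5:12383385). Bases 21 to 50 after that RefSeq start also lie before the annotated gene start. That they were found in 0 of 5 annotated *Sema3d* transcripts thus follows from the positions and is no separate result.

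Class 3 semaphorins, the secreted ligands, made up most of the semaphorin RNA in both passages, with 178 CPM summed over 7 genes in PC5 against 111 CPM. *Sema3a*, the classic repellent that acts through *Nrp1* and A-type plexins, was the leading semaphorin in both. It stood at 113 CPM (111 to 114) in PC5 against 35.2 CPM (34.4 to 36.1), a 3.20-fold difference (log2 1.68, 1.64 to 1.72), with a UMI in 63.3% and 29.3% of thinned cells. *Sema3e*, which binds *Plxnd1* without a neuropilin, was also higher in PC5, at 26.4 against 10.0 CPM (log2 1.40, 1.33 to 1.48). *Sema3d* was on in PC5 only, with 938 UMIs against 24, or 4.21 CPM against 0.126 CPM (log2 5.07, 4.48 to 5.72). These 3 genes lie with *Sema3c* on chromosome 5 in a stretch of 5.35 Mb.

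*Sema3b* and *Sema3f* had the opposite order. *Sema3f*, the ligand best known for *Nrp2*, was at 1.46 CPM (1.31 to 1.63) in PC5 against 16.9 CPM (16.3 to 17.5), 11.5-fold higher in PC20 (log2 −3.53, −3.70 to −3.36). *Sema3b* was at 0.785 CPM (0.673 to 0.910) and 15.4 CPM (14.9 to 16.0), 19.7-fold higher in PC20 (log2 −4.30, −4.53 to −4.08). In PC5 its share of 0.949% of thinned cells (0.758% to 1.17%) lay just under the limit for being on, against 13.6% in PC20. Both genes are on chromosome 9, minus strand, at chr9:107597674-107609229 and chr9:107681500-107710475, with 72.3 kb between them. *Sema3c*, a ligand of both neuropilins and *Plxnd1*, had the same level in both passages within counting error, 32.1 CPM (31.4 to 32.8) against 33.1 CPM (32.3 to 33.9) (log2 −0.04, −0.09 to 0.01). *Sema3g*, an endothelial ligand, had 6 and 3 UMIs and was on in neither.

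**Figure D2:**
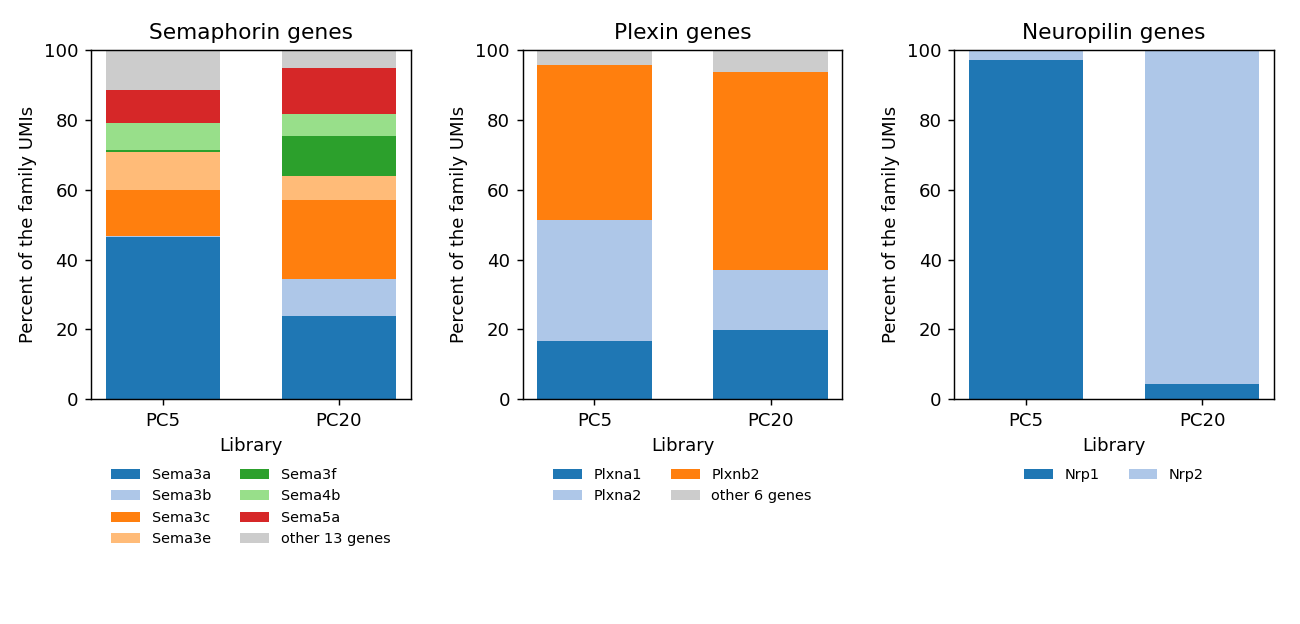
Share of the UMIs of each family (semaphorins, plexins, neuropilins) that each gene held in PC5 and in PC20, in percent, as stacked bars that add up to 100%. *Sema3a* goes from 46.4% of semaphorin UMIs in PC5 to 24.0% in PC20, *Sema3b* and *Sema3f* become visible there, and the neuropilin bar turns from *Nrp1* to *Nrp2*.

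Within the semaphorin UMIs, *Sema3a* held 46.4% in PC5 and 24.0% in PC20, *Sema3c* 13.2% and 22.5%, and *Sema3e* 10.9% and 6.82%. *Sema3b* and *Sema3f* went from 0.323% and 0.602% to 10.5% and 11.5%. A single gene thus led by far in PC5, while *Sema3a* and *Sema3c* held similar shares in PC20.

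In summed level the transmembrane classes 4, 5 and 6 and the membrane-anchored class 7 were each low beside class 3. None of their genes on in either passage was past 2-fold higher in PC20. *Sema4b* was the leading class 4 gene, with 18.5 against 9.58 CPM (log2 0.95, 0.87 to 1.03), and *Sema4c*, a ligand of *Plxnb2*, was at 4.47 and 2.78 CPM. *Sema4g*, another class 4 gene, was on in PC5 only, with 1079 UMIs against 68, or 4.84 CPM against 0.356 CPM, a 13.6-fold difference (log2 3.77, 3.41 to 4.14). *Sema5a*, whose extracellular part carries thrombospondin repeats, was at 22.9 and 19.1 CPM and was found in 19.6% and 16.3% of thinned cells. In PC20 it was above *Sema3e*, *Sema3b* and *Sema3f* of class 3, and in PC5 above *Sema3d*, *Sema3b* and *Sema3f*.

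Class 6 was on through *Sema6d* and *Sema6b*, both above the 1% limit in PC5 only. The *Sema6d* share in PC20 of 0.805% (0.564% to 1.11%) spans that limit, and at 0.5% of cells *Sema6d* and *Sema6c* were on in PC20 as well. *Sema6d*, a ligand of *Plxna1*, was at 5.74 CPM (5.43 to 6.07) in PC5 against 0.884 CPM (0.756 to 1.03) (log2 2.70, 2.47 to 2.94). *Sema6b* had 536 UMIs against 157 (log2 1.55, 1.29 to 1.81), a ratio that was higher in thinned cells (2.82), in cells without cycling UMIs (2.37) and as a mean over cells (2.03). *Sema7a* (chr9:57940112-57962865, plus strand), anchored to the membrane by a lipid and known to act through *Plxnc1* and through integrins, had 946 UMIs in PC5 and 35 in PC20, or 4.24 CPM (3.98 to 4.52) against 0.183 CPM (0.128 to 0.255), 23.2-fold higher in PC5 (log2 4.53, 4.05 to 5.06).

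The most abundant plexins were on in both passages, and 3 of the 7 plexins on in either were within 2-fold. *Plxnb2*, a receptor of class 4 semaphorins and of angiogenin, led in both, with 86.4 CPM (85.1 to 87.6) against 75.0 CPM (73.8 to 76.2) (log2 0.20), and was in 57.4% and 52.1% of thinned cells. *Plxna1* was at 32.4 and 26.1 CPM (log2 0.31) and *Plxnd1*, the endothelial receptor of Sema3E, at 4.48 and 3.67 CPM (log2 0.29). *Plxna2*, one of the signalling partners of neuropilins, was the exception among abundant plexins, at 67.3 CPM (66.2 to 68.4) against 22.8 CPM (22.2 to 23.5), 2.95-fold higher in PC5 (log2 1.56, 1.51 to 1.61). Its share of plexin UMIs was 34.7% in PC5 and 17.3% in PC20, while that of *Plxnb2* was 44.5% and 56.7%.

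The 3 remaining plexins on in a passage were rare. *Plxna3*, another neuropilin partner, was at 2.80 and 1.21 CPM (log2 1.21, 0.99 to 1.43). *Plxnb1*, the receptor of Sema4D, was at 0.767 and 2.13 CPM (log2 −1.47, −1.74 to −1.21) and was on in PC20 only. *Plxnc1* (chr10:94790866-94944835, minus strand), the receptor of Sema7A, had 4 UMIs in PC5 and 271 in PC20 (log2 −6.31, −8.19 to −4.93), so that it was found in 1.54% of thinned PC20 cells. The ligand *Sema7a* and its receptor *Plxnc1* were therefore on in different passages.

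**Figure D3:**
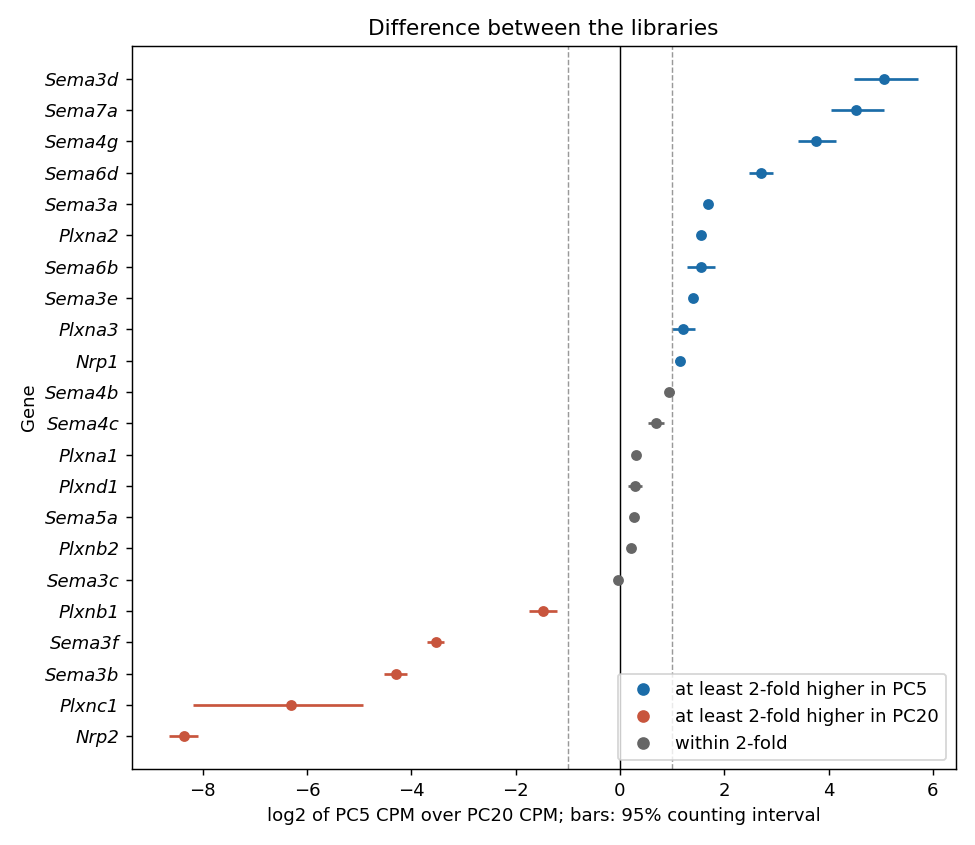
Log2 ratio of PC5 over PC20 CPM for each of the 22 members on in at least 1 passage, with exact conditional 95% intervals that cover counting error only, and lines at a 2-fold difference. Past the lines lie 10 members on the PC5 side and 5 on the PC20 side, with *Nrp2* and *Plxnc1* the farthest toward PC20 and *Sema3d* and *Sema7a* toward PC5.

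Of the 22 members on in either passage, 10 were past 2-fold higher in PC5 (45.5%) and 5 past 2-fold higher in PC20 (22.7%), beside 21.6% and 18.9% of all 12290 genes on in either. In either direction these were 15 of 22 members, beside 40.5% of all such genes, and the other 7 were within 2-fold. The median log2 ratio was 0.82 over the 22 members and 0.04 over all such genes. Semaphorins, which were 13 of the 22, gave 7 of the 10 and 2 of the 5, or 53.8% and 15.4% of those 13. The 12 members on in neither passage had UMIs in at most 0.916% of thinned cells. Among these *Sema4d*, the ligand of *Plxnb1*, had 32 UMIs in PC5 and 139 in PC20, *Sema4f* 67 and 154, *Sema6a* 130 and 53, and *Sema6c* 187 and 119. *Plxna4* had 10 and 0 UMIs and *Plxnb3*, the receptor of Sema5A, 3 and 0. *Sema5b* and the antisense RNAs *Plxna4os2* and *Plxna4os3* had 0 UMIs in both, which allows up to 0.0165 CPM in PC5 and 0.0193 CPM in PC20 (upper ends of the exact intervals; 3 UMIs would be 0.0134 and 0.0157 CPM).

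Ligands and receptors were next read in the same thinned cells. In PC5 1376 cells (15.6%) had UMIs of *Nrp1* alone, 37 (0.418%) of *Nrp2* alone and 10 (0.113%) of both. In PC20 85 cells (1.90%) had *Nrp1* alone, 3101 (69.3%) *Nrp2* alone and 231 (5.16%) both. The shares with both were close to the product of the single shares, 0.0832% in PC5 and 5.26% in PC20. No neuropilin UMI was found in 83.9% of PC5 and 23.6% of PC20 cells.

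Cells with UMIs of both a ligand and its receptor were mostly about as many as the single shares give. The counts thus add little to the levels of each gene for most pairs. *Sema3a* was found with *Nrp1* in 895 PC5 cells (10.1%, product of the shares 9.91%) and in 89 PC20 cells (1.99%, product 2.07%). *Sema3f* was found with *Nrp2* in 482 PC20 cells (10.8%, product 11.3%) and *Sema3b* with *Nrp2* in 461 (10.3%, product 10.2%), against 3 and 1 cells in PC5. *Sema3c*, at the same level in both passages, was with *Nrp1* in 274 PC5 cells and with *Nrp2* in 909 PC20 cells (20.3%, product 19.1%). *Sema4c* with *Plxnb2* was found in 2.93% of PC5 (product 2.73%) and 1.63% of PC20 cells (product 1.36%). *Sema3e* with *Plxnd1* was in 0.769% of PC5 (product 0.935%) and 0.492% of PC20 cells (product 0.347%). *Sema6d* with *Plxna1* was in 1.99% of PC5 cells (1.71% to 2.30%), above the product of 1.67%. In PC20 that pair was in 0.201% of cells (product 0.187%). A PC5 cell held UMIs of 1.71 semaphorin genes on average and a PC20 cell of 1.26, with 2 or more in 54.8% and 36.5% of cells and 0 in 12.8% and 26.7%. For plexins the mean number of genes was 1.40 and 1.02, and 15.8% and 29.0% of cells had 0.

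**Figure D4:**
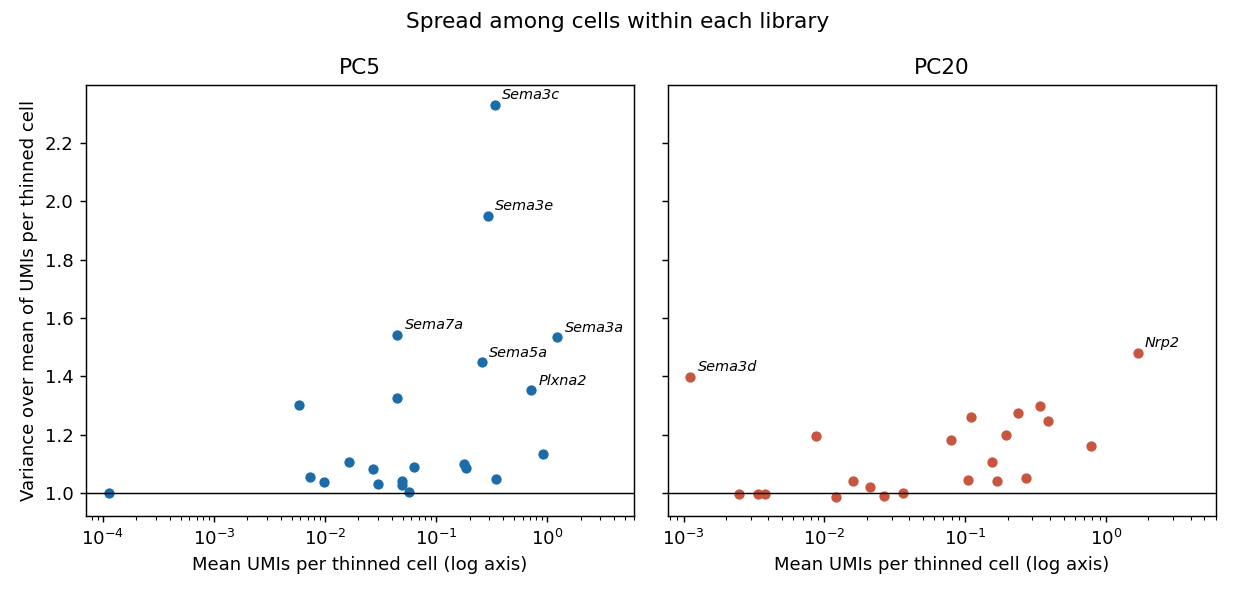
Variance divided by mean of the UMIs per thinned cell against the mean UMIs per cell on a log axis, for the 22 members on in at least 1 library, with the Poisson value of 1 as a line. In PC5 *Sema3c* (2.33) and *Sema3e* (1.95) lie highest, and in PC20 *Nrp2* (1.48) lies highest, while the *Sema3d* point in PC20 is of a gene not on there. *Nrp2* in PC20 also has the highest mean, and the ratio rises with the mean at the same relative unevenness.

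Members also differed in how evenly they were spread over the cells of a culture. A gene at the same level in every cell gives a variance over mean of 1 in thinned UMIs. In PC5 the ratio was 2.33 for *Sema3c* and 1.95 for *Sema3e*, and the same genes had 1.30 and 1.26 in PC20. At the same relative unevenness this ratio rises with the mean. Mean UMIs per thinned cell were 0.339 in PC5 and 0.340 in PC20 for *Sema3c*, but 0.290 and 0.111 for *Sema3e*. The *Sema3e* ratios thus mix spread with level. The level of *Sema3c* was thus alike in both cultures, while its spread over cells was not: it was found in 20.9% of PC5 and 25.7% of PC20 thinned cells (33.5% and 53.8% before thinning). *Nrp2* in PC20 had a ratio of 1.48 at a mean of 1.68 UMIs, the highest mean of the members there. Of these cells 25.5% were at 0 UMIs, 28.5% at 1, 43.5% at 2 to 5 and 2.53% at 6 or more. In PC5 *Sema7a* (1.54) and *Sema3d* (1.33) had lower ratios than *Sema3c*, but at means of only 0.0446 and 0.0441 UMIs. Before thinning, the 1% of PC5 cells richest in a gene held 37.2% of *Sema7a* and 29.9% of *Sema3d* UMIs. For *Sema3c* and *Sema3e* these shares were 15.8% and 14.6%, and for *Sema4g*, near *Sema7a* in level, 17.7%.

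The PC5 cells with 3 or more thinned UMIs of *Sema3c* or *Sema3e* were described further, a split made after the values were seen and read without a test. There were 242 such cells for *Sema3c* (2.74%, holding 34.7% of its UMIs) and 167 for *Sema3e* (1.89%, holding 26.0%), and 1 cell was in both sets. At the limit, 469 cells had 2 or 3 UMIs of *Sema3c* and 399 had 2 or 3 of *Sema3e*. Leading genes were ranked by their ratio of rich cells over cells with 0 UMIs. Only genes with at least 50 CPM in the rich cells and 10 UMIs in the cells with 0 entered. They were thus picked where they are high, so the size of a leading ratio is no separate result. Relative to cells with 0 UMIs of *Sema3c*, the rich cells had higher levels of *Igfbp4* (log2 1.95), an IGF-binding protein, of the chemokine genes *Ccl2* (1.92) and *Ccl7* (1.42), and of the small proteoglycan gene *Dcn* (1.37). In cells rich in *Sema3e* the same genes were lower than in cells without it, at −1.60, −0.38, −0.69 and −0.83. *Serpine2* (1.47) and *Heg1* (1.25), also leading genes of the *Sema3c*-rich cells, differed less there, at −0.35 and −0.16 (−0.39 to 0.07). The *Sema3e*-rich cells had higher levels of the activin antagonist *Fst* (2.82), of the chemokine *Cxcl12* (2.53) and of *Mgp* (2.21), an inhibitor of calcification. In *Sema3c*-rich cells *Fst* was higher as well (1.07, 0.65 to 1.47), as was *Nkain4* (1.08), while *Cxcl12* (−0.61) and *Mgp* (−0.14) were lower.

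Some other members differed in these cells as well, while most had intervals that included no difference. *Sema3d* was at 11.8 CPM in *Sema3c*-rich cells and 3.48 CPM in cells without *Sema3c* UMIs (log2 1.76, 1.16 to 2.31), and was also higher in *Sema3e*-rich cells (log2 1.05, 0.20 to 1.80). *Nrp1* was at 27.4 against 16.2 CPM in *Sema3e*-rich cells (log2 0.75, 0.30 to 1.17) and lower in *Sema3c*-rich ones (log2 −0.59, −1.17 to −0.06). In *Sema3c*-rich cells *Plxna2* was higher (log2 0.55, 0.35 to 0.73). *Sema5a* (−0.67, −1.15 to −0.23), *Sema3e* (−0.60, −1.05 to −0.19) and *Plxna1* (−0.46, −0.86 to −0.10) were lower there. In *Sema3e*-rich cells *Plxna2* (0.28, 0.03 to 0.52) and *Plxnb2* (0.28, 0.06 to 0.49) were higher and *Sema3c* (−0.62, −1.12 to −0.15) was lower. *Sema7a* had 3 UMIs in the *Sema3c*-rich and 1 in the *Sema3e*-rich cells, so its log2 ratios of −1.95 (−4.24 to −0.39) and −2.99 (−8.30 to −0.50) rest on few molecules. The rich cells were slightly shallower, with medians of 21481 and 20122 UMIs before thinning against 23227 and 23042 in cells without the gene. A cycling UMI was found in 32.2% and 37.1% of them and in 35.4% of all thinned PC5 cells.

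**Figure D5:**
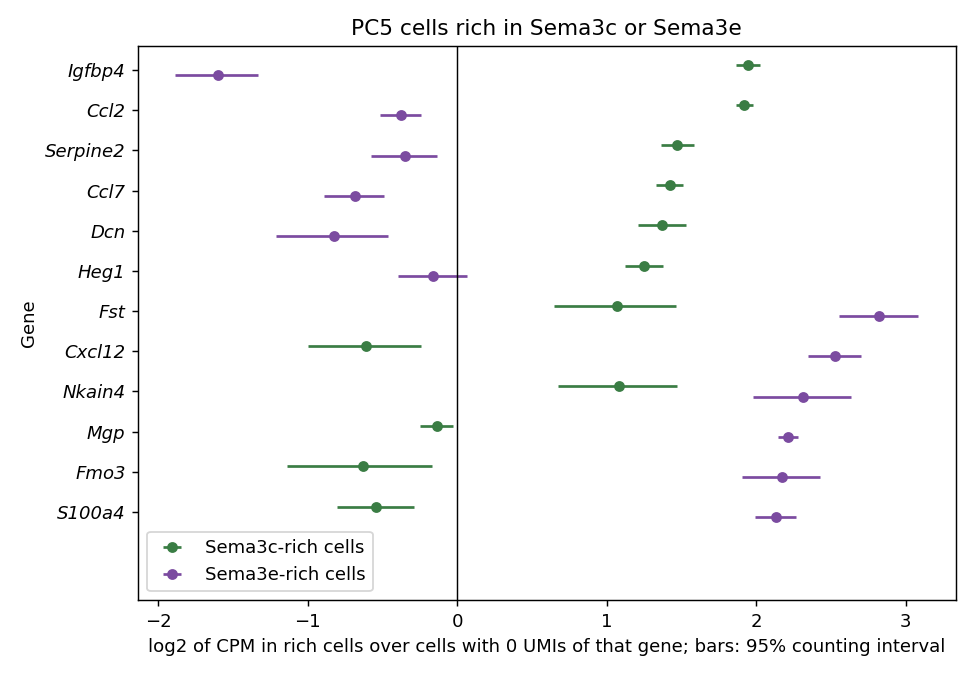
Log2 ratio of CPM in PC5 cells with 3 or more thinned UMIs of *Sema3c* (green) or *Sema3e* (purple) over cells with 0 UMIs of that gene, for 6 of the leading genes of each, with 95% intervals that cover counting error only. The leading genes of 1 set are below 0 or closer to 0 in the other, as for *Igfbp4* (1.95 and −1.60) and *Cxcl12* (−0.61 and 2.53). Each gene was picked for a high ratio in its own set, which by itself favours a lower ratio in the other.

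More PC20 than PC5 cells held a cycling UMI before thinning, where PC20 cells were the deeper, and no thinned PC20 share is given. Members were therefore also read in cells with and without UMIs of *Mki67* or *Top2a*, counted before thinning. Of the 21 members with a value in PC5, 20 differed by less than 2-fold between these cells, and 20 of 22 did in PC20. The PC5 exception was *Nrp2*, with 28 UMIs in cells with and 81 in cells without these UMIs, or 0.241 against 0.758 CPM (log2 −1.65, −2.33 to −1.02). The PC20 exceptions were *Sema6b* (log2 1.22, 0.44 to 2.09) and *Sema3d* (log2 −1.03, −2.34 to 0.40), the latter with 24 UMIs in all. *Nrp2* in PC20 was at 162 CPM in cells with and 152 CPM in cells without these UMIs. In PC5 *Sema4g* was at 3.55 and 6.24 CPM (log2 −0.82) and *Sema6d* at 4.67 and 6.91 CPM (log2 −0.56). In PC20 *Sema6d* (log2 −0.90) and *Plxna3* (log2 −0.83) were likewise lower in cells with these UMIs. Among cells without them, *Plxna3* and *Sema3e* had log2 ratios of PC5 over PC20 of 0.62 and 0.99, below the 2-fold limit, and *Sema4b* had 1.07, above it.

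The wider pathway was read through 65 genes for receptor partners, other neuropilin ligands, GTPases and their regulators, cytoplasmic mediators and processing enzymes. The list was made with earlier results of these data known, so its shares are not independent of the values. Of the 57 on in either passage, 22 were past 2-fold higher in PC5 (38.6%) and 3 past 2-fold higher in PC20 (5.26%), beside 21.6% and 18.9% of all genes, and the median log2 ratio was 0.53. Of 13 receptor partners 8 were on in either passage, and 4 of these were higher in PC5, among them the VEGF receptors *Kdr* (log2 7.55) and *Flt4* (4.17). *Flt1*, a further VEGF receptor, was higher in PC20 (log2 −2.07). Of 6 neuropilin ligands outside the family, *Vegfc* (5.47), *Vegfd* (3.74) and *Hgf* (8.76) were higher in PC5. The other 3 were within 2-fold and nearer to PC20, *Vegfa* at 175 against 205 CPM (log2 −0.23), *Vegfb* (−0.74) and *Pgf* (−0.94), and the summed level of the 6 had a log2 ratio of −0.08. *Vegfc*, a ligand of *Nrp2*, was at its higher level in the passage where *Nrp2* was at its lower one. The highest ratios of the pathway rest on few PC20 molecules, with 13 UMIs of *Kdr*, 4 of *Hgf* and 5 of *Crmp1*.

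All 18 GTPases and regulators were on in either passage, with 4 past 2-fold higher in PC5 (22.2%) and 2 in PC20 (11.1%). Of all genes on in either passage, these shares were 21.6% and 18.9%. The 2 higher in PC20 were *Rnd1* (log2 −5.91), a small GTPase that binds plexins, and *Mras* (−1.57). Of 21 cytoplasmic mediators 19 were on in either passage, with 6 higher in PC5 (31.6% of those on) and 0 in PC20. The 6 were led by *Crmp1* (9.74, 8.52 to 11.37), a collapsin response mediator, with *Limk1* (3.14), the kinase of cofilin, and *Mical1* (3.13), an actin oxidase bound by A-type plexins. Of 7 processing enzymes 6 were on in either passage, with 5 higher in PC5 (83.3% of those on) and 0 in PC20. They included *Furin* (1.95), the convertase that cleaves class 3 semaphorins, the secreted protease *Adamts1* (2.15) and the sheddase *Adam10* (3.06).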

How the data were processed

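Per the file headers and the submitters' notes, the authors aligned and counted 10x 3′ version 3.1 reads with Cell Ranger (5.0.1 in the headers) and deposited filtered UMI counts per gene and cell. Gene positions are from GENCODE M21 (GRCm38), and upstream sequences from RefSeq (GRCm38.p6). All 34 members matched. A cell was kept if it had over 1000 genes and less than 20% of UMIs from mitochondrial genes. Barcodes of 20 cells occurred in both libraries, and no doublet caller was run. Counts were summed per library and scaled to CPM of 223054273 (PC5) and 191122251 (PC20) UMIs. These are 3′ counts, so no length scaling was applied. Cells were thinned to 10500 UMIs (seed 20), leaving out 1103 PC5 and 275 PC20 cells. Intervals are exact (Poisson for levels, Clopper-Pearson for shares, conditional binomial for ratios), computed with numpy 2.4.6, scipy 1.17.1 and pandas 2.3.3. The ratio intervals were tried on simulated Poisson counts with the same gene shares in every cell. That trial cannot show how they behave for genes that vary among cells. A gene past 2-fold was also on in the library where it was higher. Named were all members on in a passage, and the members, lists and thresholds were chosen with earlier results of these data known. Motifs, the sequences shown and the split cells were chosen after the values were seen. Members that overlap another gene do so on opposite strands. Other cell filters, scalings, thresholds and cell subsets were tried as alternatives. No columns of other series were used. Among the genes that led in the split cells, 1 is not reported here.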

Additional observations from a re-analysis of the deposited data

How the results depend on the processing

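The counts of members on (18 in PC5, 17 in PC20) and past 2-fold (10 higher in PC5, 5 in PC20), and of pathway genes past 2-fold (22 and 3), stayed within 1.5 times of these values under other cell filters, without cells holding cycling UMIs, without the 5% of cells with the most UMIs, under other scalings, and with the limit for on at 0.5% or 2%. With that limit at 5% of cells, 11 members were on in PC5 and 12 in PC20, 6 were past 2-fold higher in PC5 and 3 in PC20. With a 4-fold limit, 4 members were higher in PC5 and 4 in PC20, and 13 pathway genes in PC5 and 2 in PC20. Of the 22 members on, all but *Sema3c* kept the direction of their ratio under every alternative with a value, and *Sema3c* was at 0.00 in cells without cycling UMIs. In those cells *Nrp2* had a log2 ratio of −7.65 and *Plxnc1* had 0 PC5 UMIs, hence no value, while in thinned cells *Sema6b* had 2.82. No paired analysis was possible because each passage is 1 library and the labels give no replicate numbers. The intervals of the shares of *Sema3b* and *Sema6c* in PC5 and of *Sema6d*, *Plxna3* and *Sema4f* in PC20 span the 1% limit.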

Other observations

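Genes beside *Sema3b* and *Sema3f* on chromosome 9 did not share one direction. Of the 17 other protein-coding genes within 100 kb of the pair, 12 were on in either passage. Of these, 4 were past 2-fold higher in PC20 (*Nprl2* with a log2 ratio of −1.47, *Hyal1* −2.19, *Nat6* −1.17 and *Ifrd2* −1.39) and 2 in PC5 (*Tusc2* 1.49 and *Hyal2* 1.26). For scale, 18.9% of all genes on in either passage were past 2-fold higher in PC20 and 21.6% in PC5. *Gnai2*, an inhibitory G protein subunit that lies between the semaphorins, had a log2 ratio of 0.83. Around *Sema3d*, *Sema3a*, *Sema3e* and *Sema3c* on chromosome 5, 3 of 18 other genes were on, and 2 of them were past 2-fold higher in PC5, *Hgf* (8.76) and *Speer3* (3.21). The region was chosen after the values were seen.

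In PC20, 65 thinned cells had 3 or more UMIs of *Sema3c*, and their leading genes differed from those of PC5. Relative to cells with 0 UMIs of *Sema3c* they had higher levels of the chemokine *Cxcl10* (180 against 72.3 CPM, log2 1.32), the RNA sensor *Ifih1* (log2 1.32), *Rsad2* (log2 0.95) and *Ifit1* (log2 0.91), which are 4 of the 12 leading genes. *Ctla2a*, a protease inhibitor, was lower (142 against 984 CPM, log2 −2.79), as was *Ogn*, a small proteoglycan gene (log2 −2.53). *Ifi27l2a* was lower too (98.2 against 229 CPM, log2 −1.22). These cells were split on a measured gene, so the values are a description with no test. The leading genes were ranked as in PC5, among genes with at least 50 CPM in the rich cells. The lower genes were ranked among those with at least 50 CPM in cells with 0 UMIs of *Sema3c*.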
